A study of Mus musculus with 10 samples.

Results

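Cathepsins are the main proteases of the lysosome, and 9 of their genes are described here in mouse bone marrow derived macrophages: Ctsa, Ctsb, Ctsc, Ctsd, Ctsh, Ctsk, Ctsl, Ctss and Ctsz. They were taken by symbol from a table of 45318 genes, and all 9 were among the 13171 genes that passed the filter on low values. Most cathepsins are cysteine proteases, Ctsd is an aspartic protease, and Ctsa is a serine carboxypeptidase. They are made as inactive precursors, carried to the acidic lysosome largely by mannose 6-phosphate receptors, and activated there by other proteases or by themselves. In macrophages they break down engulfed and internal proteins, process antigen and the endosomal Toll-like receptors, and are held in check by cystatins and related inhibitors.

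The cells came from C57BL/6 mice, and RNA was read in 10 libraries forming 5 groups of 2. By label they were wild type (WT) or Tlr4-/- (KO). Cells of each genotype were either untreated or collected 6 h into culture with 5% FBS and 2% BSA (control medium), and the fifth group held KO cells with a Poly(I:C) pre-treatment. Poly(I:C) is a synthetic double-stranded RNA sensed by TLR3, and TLR4 is the receptor for bacterial lipopolysaccharide. The labels give neither the medium nor the time for untreated cells, neither the length nor the medium of the Poly(I:C) treatment, and nothing on the Tlr4 allele. A Poly(I:C) group of WT cells was not analysed here. Whether the libraries of a group stem from separate mice or cultures is not in the labels, and a p-value below reflects only how far these libraries spread, possibly for technical reasons.

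Levels are given as CPM, the deposited value as a share of the library, scaled by trimmed means, per M. Deposited totals were 25.2 to 51.7 M per library, and the spacing of the low values gave 18.4 to 56.5 M reads behind them. The macrophage markers summed to 24300 to 28493 CPM in every library, of which Lyz2 gave 14665 to 19155 CPM, whereas markers of T and NK cells summed to at most 0.198 CPM. Other macrophage markers differed between the same groups: from untreated WT to WT control, Cd14 went from 160.5 and 165.6 to 1075 and 1023 CPM, Fcgr1 from 218 and 236 to 986 and 1090 CPM, and Mrc1 from 511 and 467 to 158.5 and 154.5 CPM. Tlr4 was still read under the KO label, at 44.4 and 45.0 CPM in untreated KO cells against 60.1 and 69.1 CPM in untreated WT cells (limma, adjusted p = 0.346). In control medium the libraries overlapped, at 30.8 and 34.65 CPM in KO and 32.3 and 38.95 in WT cells (−0.12 log2, limma adjusted p = 0.488). The KO Poly(I:C) libraries held 47.9 and 63.4 CPM. The files hold 1 value per gene and cannot tell whether the deleted region was read, so every genotype below is the genotype as labelled. In these bulk libraries, fewer cells of a type and less RNA per cell cannot be told apart.

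Transcripts of the 9 genes together made up 1.77% to 2.75% of the deposited total of a library. Per kb of the principal transcript, the order of the first 3 genes was Ctsd, Ctsb and Ctss in all 5 groups. In untreated WT cells these stood at 3321 ± 440.4, 1883 ± 148 and 936 ± 53.5 CPM per kb (SD, n = 2). Ctsz followed at 556 ± 71.8 CPM per kb, and Ctsl, Ctsa, Ctsc and Ctsh lay between 154 and 252 CPM per kb. Ctsk, the collagen-degrading protease of osteoclasts, was the lowest in all groups, at 1.38 to 2.24 CPM per kb. By CPM, Ctsb exceeded at least 99.9% of the genes kept in each group, whereas Ctsk exceeded 20.8% to 26.9%.

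Ctsc, the dipeptidyl peptidase that activates the serine proteases of granules, changed its place in this order. It stood at 210 ± 17.4 CPM per kb in untreated WT cells and at 954 ± 6.03 in WT cells after control medium, where it ranked above Ctsz. It ranked above Ctsz also in Poly(I:C)-treated KO cells, at 1249 ± 40.03 against 1002 ± 8.68 CPM per kb. With merged exons in place of the principal transcript (5326 against 2493 bases), Ctsc ranked below Ctsz in all 5 groups. The order of these 2 genes therefore depends on the length used, while the differences between groups do not.

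Ctsk and Ctss are neighbours on chromosome 3 of GRCm38, on the same strand (95499256 to 95509362 and 95526786 to 95556403). The gap between them is 17423 bases, and the annotation lists 0 genes in it. Per kb, the Ctss level was 418 to 918 times that of Ctsk, depending on the group. The other genes lie apart: Ctsa (164832873 to 164841032) and Ctsz (174427493 to 174439039) on chromosome 2, Ctsc (88278085 to 88310888) and Ctsd (142375911 to 142388038) on chromosome 7, Ctsh on 9, Ctsl on 13 and Ctsb on 14. Ctsa overlaps Pltp on the opposite strand, which reached 335 CPM, Ctsb overlaps Fdft1 (up to 38.6 CPM) and Ctsz overlaps Nelfcd (up to 21.9 CPM). The kit keeps strand, but how strand was treated in counting is not stated in the sources at hand, so shared reads in these 3 genes cannot be told apart.

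Sequence upstream of the gene start was read from RefSeq (GRCm38.p6), which held 8 promoter windows for 7 of the 9 genes. The 250 bases before the start are shown 5′ to 3′ for Ctsc, Ctsz and Ctss, the genes with the largest differences between groups. A set of 6 motifs was searched on both strands, and matches are in capitals: CACGTG (E-box), GTCACGTG (its extension found at lysosomal genes, which contains the first), GAAANNGAAA (interferon-stimulated response element, ISRE), TTCNNNGAA (gamma-activated site, GAS), GAGGAA (PU.1 type) and GGGCGG (GC box).
Ctsc (chr7:88277835-88278084, plus strand): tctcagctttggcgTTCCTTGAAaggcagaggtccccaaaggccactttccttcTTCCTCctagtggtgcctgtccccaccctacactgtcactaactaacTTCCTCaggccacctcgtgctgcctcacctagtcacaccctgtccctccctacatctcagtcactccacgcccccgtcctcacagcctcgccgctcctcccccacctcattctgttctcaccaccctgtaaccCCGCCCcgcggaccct
Ctsz (chr2:174439040-174439289, minus strand): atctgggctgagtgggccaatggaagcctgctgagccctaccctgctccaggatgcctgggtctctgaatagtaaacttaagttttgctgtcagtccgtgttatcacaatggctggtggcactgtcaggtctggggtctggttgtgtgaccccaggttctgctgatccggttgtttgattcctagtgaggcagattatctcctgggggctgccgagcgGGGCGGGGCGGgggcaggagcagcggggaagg
Ctss (chr3:95526536-95526785, plus strand): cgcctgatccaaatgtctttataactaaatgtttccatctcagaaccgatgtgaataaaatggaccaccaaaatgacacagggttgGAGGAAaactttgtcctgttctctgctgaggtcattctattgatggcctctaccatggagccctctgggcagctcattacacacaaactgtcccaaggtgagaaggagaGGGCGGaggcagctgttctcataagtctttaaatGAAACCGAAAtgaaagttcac
The ISRE letters were found in the Ctss window, 21 bases before the start, as GAAACCGAAA. Among all 32851 windows of this length 2.98% held them, and among the 8 cathepsin windows 1 did. GAS letters were found in the Ctsc window (7.02% of all windows), 236 bases before the start, with 2 PU.1-type matches on the reverse strand, a motif held by 23.3% of all windows, and a GC box 16 bases before the start. The Ctss window also held 1 PU.1-type match and 1 GC box. The Ctsz window held 2 adjacent GC boxes, 32 and 27 bases before the start, that share a base, and a GC box was present in 32.7% of all windows. A match is a run of letters and not a measured binding site.

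For comparison, the extended E-box was found in 2 of the 8 cathepsin windows and in 1.85% of all windows. The sites are shown as 30-base stretches with the motif in capitals, since each whole window overlaps annotated exons. Whether a site itself overlaps an exon was not checked.
Ctsd, distal site (chr7:142388048-142388077, minus strand): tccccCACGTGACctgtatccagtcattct
Ctsd, proximal site (chr7:142387907-142387936, minus strand): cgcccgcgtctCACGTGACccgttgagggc
Ctsa, second start (chr2:164833743-164833772, plus strand): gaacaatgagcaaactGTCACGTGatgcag
Ctsd, the major aspartic protease, held 2 such sites, 245 and 98 bases before its RefSeq start, both on the reverse strand. Ctsa, the protective protein of lysosomal beta-galactosidase and neuraminidase, held 1, at 14 bases before the second of its 2 listed starts. Ctsl held the short E-box only, 236 bases before its RefSeq start. These RefSeq starts differ from the ends of the annotated gene spans. The proximal Ctsd site, the Ctsa site and the Ctsl site lie within those spans, and the distal Ctsd site lies outside. The short form was present in 6.02% of all windows.

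The 9 genes were compared between groups with limma on log2(CPM + 0.1), fitted over all genes and libraries. A gene was called where the Benjamini-Hochberg adjusted p was below 0.05. Between untreated KO and WT cells, 0 of the 9 were called, where 0.167% of all genes were, and 1 (Ctsk) had an unadjusted p under 0.05. After control medium, 4 were lower in KO than in WT cells (Ctsc, Ctsz, Ctss and Ctsl) and 0 were higher, where 61.1% of all genes were called in either direction. Against untreated cells, 3 were higher in WT cells after control medium (Ctsc, Ctsz and Ctss), with 65.8% of all genes called. In KO cells the same medium gave 1 higher (Ctsc) and 1 lower (Ctsl), with 20% of all genes called.

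Poly(I:C)-treated KO cells had 5 of the 9 higher than KO cells in control medium (Ctsc, Ctsz, Ctss, Ctsl and Ctsb), with 69.4% of all genes called. Against untreated KO cells they had 3 higher (Ctsc, Ctsz and Ctss) and 1 lower (Ctsd), with 72.1% called. The interaction of genotype and control medium called 4 (Ctsc, Ctsz, Ctss and Ctsl), all with a negative value (KO response minus WT response), with 45.7% of all genes called. These shares of called genes are near or above those of the 9 in most comparisons, so the counts alone do not set the cathepsins apart. The median absolute log2 difference of the 9 was 0.14 in WT cells after control medium, against 0.60 over all genes, and 0.43 against 0.67 for Poly(I:C) against control medium. The comparisons share groups: KO control enters 4 of the 7, and they are not independent of each other.

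**Figure D1:**
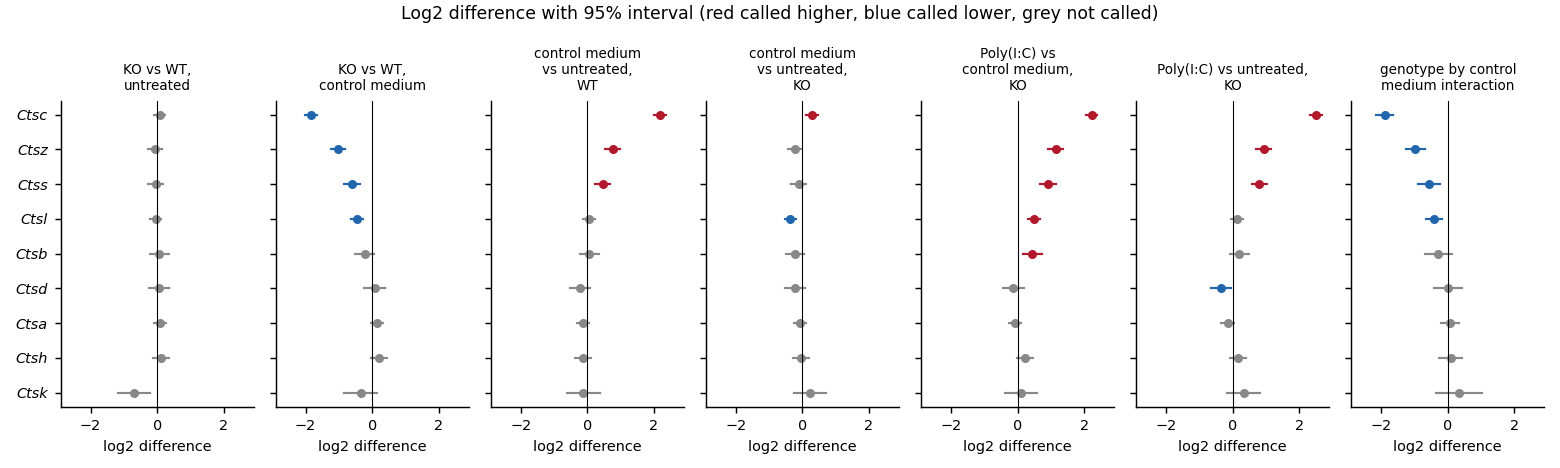
Log2 difference (points) with its 95% interval (lines) for each of the 9 cathepsin genes in the 7 comparisons, from limma on log2(CPM + 0.1); red marks genes called higher and blue genes called lower at an adjusted p under 0.05. Ctsc has the largest difference in the 5 comparisons that involve WT control or KO Poly(I:C) libraries, and all points of the untreated comparison are grey.

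Ctsc was read at 553 and 492 CPM in untreated WT cells, 548 and 550.5 in untreated KO cells, 2389 and 2368 in WT control, 689 and 649 in KO control, and 3044 and 3185 in KO Poly(I:C) libraries. WT control and the KO Poly(I:C) libraries were thus all above the other libraries, and KO Poly(I:C) was above WT control. In WT cells the level after control medium was higher by 2.19 log2 (SE 0.08, 4.56-fold, limma adjusted p = 1.18e-08). In KO cells it was higher by 0.28 (SE 0.08, 1.22-fold, limma adjusted p = 0.0305), a call that was lost when any 1 of the 4 KO untreated or KO control libraries was left out (adjusted p = 0.116 to 0.184).

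The difference between these responses was −1.90 (SE 0.11, limma adjusted p = 1.06e-06). KO control cells accordingly had less Ctsc than WT control cells, by −1.83 (SE 0.08, limma adjusted p = 3.91e-08). Poly(I:C)-treated KO cells were higher than KO control cells by 2.22 (SE 0.08, limma adjusted p = 6.31e-09) and higher than untreated KO cells by 2.50 (limma adjusted p = 2.37e-09). Untreated KO and WT cells differed by 0.07, with a 95% interval of −0.10 to 0.25 and overlapping libraries. Apart from the response of KO cells to control medium, each called Ctsc difference kept its call in all 20 alternative settings.

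Ctsz, a carboxypeptidase that removes single residues from the end of proteins, was read at 728 and 874 CPM in untreated WT cells and 752 and 767 in untreated KO cells. It stood at 1272 and 1427 in WT control, 657 and 657 in KO control, and 1452 and 1435 in KO Poly(I:C) libraries. Its high groups were those of Ctsc, and KO control was below every other library. In WT cells it was higher after control medium by 0.76 log2 (SE 0.09, 1.69-fold, limma adjusted p = 5.75e-05), and in KO cells the difference was −0.21 (95% interval −0.42 to 0.00, adjusted p = 0.155). The responses differed by −0.97 (SE 0.13, limma adjusted p = 2.65e-04).

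After control medium, KO cells had less Ctsz than WT cells by −1.04 (SE 0.09, limma adjusted p = 7.28e-06). Poly(I:C) in KO cells gave 1.14 above control medium (SE 0.09, 2.20-fold, limma adjusted p = 2.51e-06) and 0.93 above untreated cells (limma adjusted p = 9.58e-06). The last of these was not called with scaling by library totals alone (0.17, adjusted p = 0.0724). The ratio of Ctsz to Ctsc CPM went from 1.53 in untreated WT to 0.567 in WT control cells, and from 1.38 in untreated KO to 0.464 in Poly(I:C)-treated KO cells.

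Ctss, which cleaves the invariant chain of MHC class II and works also at neutral pH, was read at 1216 and 1319 CPM in untreated WT cells and 1141 and 1319 in untreated KO cells. It stood at 1613 and 1872 in WT control, 1085 and 1189 in KO control, and 2109 and 2153 in KO Poly(I:C) libraries. Again the WT control and the KO Poly(I:C) libraries were above all others, and KO control overlapped untreated KO. In WT cells it was higher after control medium by 0.46 log2 (SE 0.10, 1.37-fold, limma adjusted p = 0.00293), and in KO cells the difference was −0.11 (95% interval −0.34 to 0.12). The interaction was −0.57 (SE 0.15, limma adjusted p = 0.00977), and KO control cells were lower than WT control cells by −0.61 (SE 0.10, limma adjusted p = 5.17e-04).

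Poly(I:C)-treated KO cells had more Ctss than KO control cells by 0.91 (SE 0.10, 1.88-fold, limma adjusted p = 2.41e-05) and more than untreated KO cells by 0.80 (SE 0.10, limma adjusted p = 5.48e-05). Scaling by library totals alone lowered the libraries of WT control and KO Poly(I:C), whose totals were the largest, and moved the median of all genes to −0.52, −0.76 and −0.77 for WT control medium, Poly(I:C) against control medium and Poly(I:C) against untreated cells. Under it the Ctss difference in WT cells turned to −0.08, and the other 4 calls of Ctss were lost (adjusted p = 0.0587 to 0.661). Relative to the median of all genes, the Ctss differences under that scaling were 0.44, 0.95 and 0.81 in these 3 comparisons.

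Ctsl, an endopeptidase of broad specificity, was read at 1609 and 1498 CPM in untreated WT cells, 1432 and 1566 in untreated KO cells, 1566 and 1631 in WT control, and 1617 and 1637 in KO Poly(I:C) libraries. KO control stood apart at 1138 and 1188 CPM, below every other library. The WT response to control medium was 0.04 log2 (95% interval −0.13 to 0.22), whereas in KO cells Ctsl was lower by −0.36 (SE 0.08, 0.777-fold, limma adjusted p = 0.0104). The difference between the responses was −0.41 (SE 0.11, limma adjusted p = 0.0133). Both of these calls were lost without the second untreated KO library (adjusted p = 0.0819 and 0.0530) and without the first KO control library (0.0820 and 0.0590).

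KO control cells had less Ctsl than WT control cells, by −0.46 (SE 0.08, limma adjusted p = 5.90e-04), and Poly(I:C)-treated KO cells had more than KO control cells, by 0.48 (SE 0.08, limma adjusted p = 3.17e-04). Poly(I:C)-treated and untreated KO cells differed by 0.12 (95% interval −0.06 to 0.30). With scaling by totals alone the differences turned to 0.03 for KO against WT in control medium, to −0.23 for Poly(I:C) against control medium and to 0.09 for the interaction. Relative to the median of all genes they were −0.47, 0.53 and −0.43 under that scaling.

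Ctsb, the most abundant of the 9 by CPM and both an endopeptidase and a carboxypeptidase that removes pairs of residues, was read at 8433 and 9427 CPM in untreated WT cells and 8646 and 10022 in untreated KO cells. It stood at 8844 and 9769 in WT control, 7449 and 8483 in KO control, and 10088 and 11411 in KO Poly(I:C) libraries. The KO Poly(I:C) libraries were the highest, and the other 4 groups overlapped in part. One difference was called: Poly(I:C)-treated KO cells were above KO control cells by 0.43 log2 (SE 0.13, 1.35-fold, limma adjusted p = 0.0123). It was lost without the first KO control library (0.34, adjusted p = 0.102) or the second KO Poly(I:C) library (0.34, adjusted p = 0.0856), and turned to −0.28 with scaling by totals alone, which is 0.48 relative to the median of all genes.

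Ctsd was read at 6400 and 7725 CPM in untreated WT cells, 6906 and 7753 in untreated KO cells, 5632 and 6422 in WT control, 5874 and 6754 in KO control, and 5334 and 6221 in KO Poly(I:C) libraries. Libraries overlapped between most groups, and those of KO Poly(I:C) lay below both untreated KO libraries. This was the only call, at −0.35 (SE 0.14, 0.787-fold, limma adjusted p = 0.0439), and it was lost in 11 of 20 alternative settings (adjusted p up to 0.361). After control medium the differences were −0.23 in WT cells (95% interval −0.53 to 0.08) and −0.22 in KO cells (−0.52 to 0.09). The ratio of Ctsd to Ctsb per kb was 1.76 in untreated WT, 1.44 in WT control and 1.199 in KO Poly(I:C) cells.

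Ctsa, Ctsh and Ctsk were called in 0 of the 7 comparisons in this fit, which has no replicate block. Ctsa ranged from 739 CPM in a WT control to 939 CPM in an untreated KO library, with group means of 781 to 903 CPM that followed each other with overlapping libraries. Ctsh, mainly an aminopeptidase, ranged from 206 to 309 CPM. Its KO Poly(I:C) libraries, at 294 and 309 CPM, were the highest, with 0.22 log2 against KO control cells (95% interval −0.02 to 0.46, adjusted p = 0.0887). For both genes the intervals in all 7 comparisons lay within −0.37 and 0.46.

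Ctsk was read at 3.32 and 3.44 CPM in untreated WT, 1.67 and 2.50 in untreated KO, 2.74 and 3.53 in WT control, 2.25 and 2.595 in KO control, and 2.76 and 2.42 in KO Poly(I:C) libraries. The untreated WT libraries lay above the untreated KO ones, by −0.70 for KO against WT (95% interval −1.19 to −0.21). This had an unadjusted p of 0.00963 and did not pass the adjusted test (limma adjusted p = 0.387). The deposited values behind the Ctsk levels were 51 to 118 per library, against 225597 to 415079 for Ctsb.

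**Figure D2:**
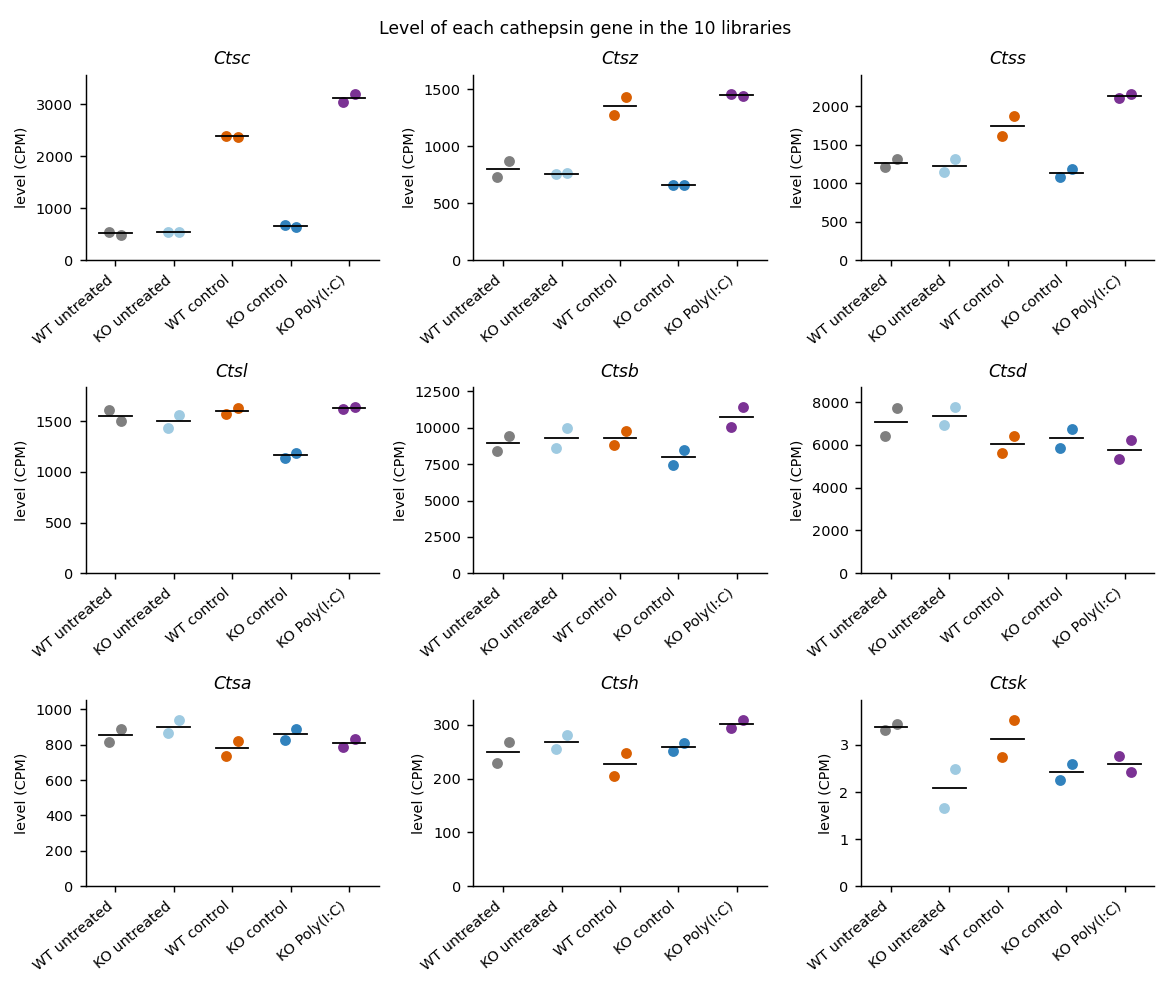
Level (CPM, linear axis from 0, scaled separately for each gene) of the 9 cathepsin genes in the 10 libraries; points are libraries and bars are the mean of the 2 libraries of a group. For Ctsc, Ctsz and Ctss the WT control and the KO Poly(I:C) libraries are above all others, and for Ctsl the KO control libraries are below all others.

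The summed level of the 9 genes was 21243 ± 1770 CPM in untreated WT, 21874 ± 1876 in untreated KO, 23412 ± 1626 in WT control, 19026 ± 1486 in KO control and 25958 ± 1738 in KO Poly(I:C) cells (SD, n = 2). Ctsb kept 39.7% to 43.2% of the sum in every library, while Ctsd went from 32.0% and 34.3% in untreated WT to 25.3% and 26.2% in WT control and 21.6% and 22.9% in KO Poly(I:C) libraries. Ctsc held 2.77% and 2.19% in untreated WT, 10.7% and 9.64% in WT control, 3.83% and 3.23% in KO control, and 12.3% and 11.7% in KO Poly(I:C) libraries. Of the 2170 CPM by which the WT sum was larger after control medium, Ctsc made up 1856 CPM, Ctsz 549 and Ctss 475, while the Ctsd difference was −1036 CPM.

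**Figure D3:**
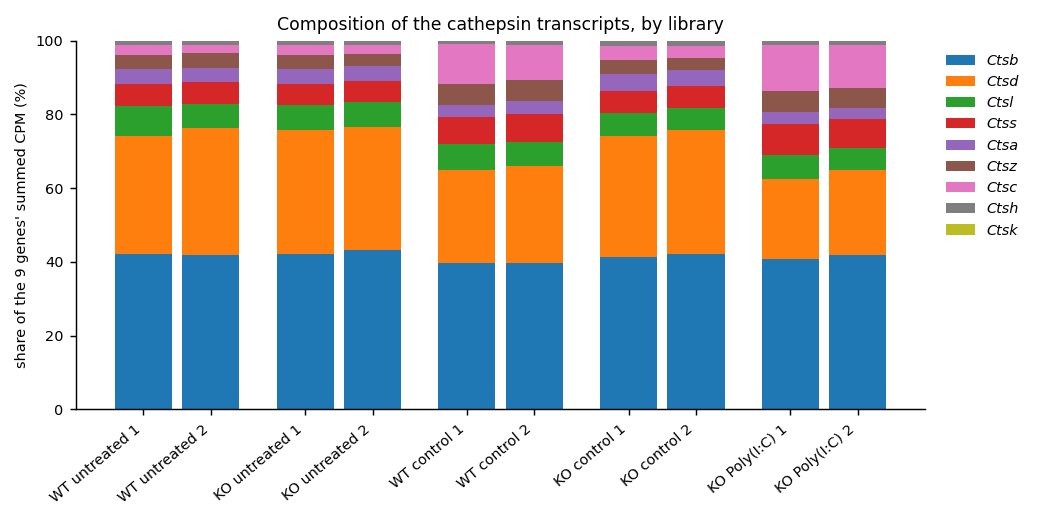
Share (%) of each cathepsin gene in the summed CPM of the 9, one bar per library, stacked to 100%. The Ctsc share is 9.64% to 12.3% in WT control and the KO Poly(I:C) libraries and 2.19% to 3.83% in the others, and the Ctsb share stays between 39.7% and 43.2%.

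Of the other cathepsin genes of the mouse, 4 of 14 listed passed the filter, and their levels were low except for Ctso. Ctso, another cysteine cathepsin, was read at 60.1 to 77.4 CPM and was called in 0 comparisons. Ctsf, also a cysteine cathepsin, stood at 4.03 and 5.14 CPM in WT control against 7.43 and 7.14 in KO control libraries (0.67 log2 higher in KO, limma adjusted p = 0.00886). The aspartic Ctse reached at most 1.85 CPM. Ctsg, the serine protease of neutrophil granules that Ctsc activates, was read at 0.219 and 0.761 CPM in untreated WT, 1.79 and 2.48 in WT control, 0.231 and 0.130 in KO control, and 2.06 and 1.87 in KO Poly(I:C) libraries.

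Ctsg was lower in KO than in WT control cells by −3.00 (SE 0.44, limma adjusted p = 2.25e-04) and higher in KO cells after Poly(I:C) than after control medium by 2.9 (limma adjusted p = 2.14e-04). Among 9 listed substrates of Ctsc, 3 passed the filter, and these were all lower in KO control than in WT control cells, where the median of all genes was 0.03. In that comparison 61.1% of all genes were called and 30.2% were called lower, so a count of 3 does not set the substrates apart. Elane, the neutrophil elastase, reached at most 2.33 CPM, and the granzymes and mast cell proteases of the list were at 0 in all 10 libraries. Of 12 neutrophil markers 11 passed the filter, and their sum was 369 to 464 CPM in untreated and KO control libraries and 1630 to 1689 CPM in WT control and the KO Poly(I:C) libraries. Of these 11 markers, 7 were higher and 0 lower in WT cells after control medium, 9 were lower and 0 higher in KO than in WT control cells, and 9 were higher and 0 lower after Poly(I:C) than after control medium, where 65.8%, 61.1% and 69.4% of all genes were called. Cxcr2, among the 11, was at 0.0313 to 0.231 CPM in untreated and KO control libraries. It stood at 0.140 and 0.508 CPM in WT control and 0.441 and 0.412 in KO Poly(I:C) libraries. Cxcr2 met the filter only with libraries of these last 2 groups, so its part in the counts rests on that selection. Lcn2, which macrophages also make, gave 797 to 1011 CPM of the higher sums, against 56.0 to 89.1 CPM in the lower set. Csf3r, the receptor for granulocyte colony-stimulating factor, was read at 127 to 182.5 CPM in the lower and 413.5 to 596 CPM in the higher set. The calprotectin subunit S100a8 stood at 4.87 to 10.1 and 41.7 to 46.8 CPM, and its partner S100a9 at 6.715 to 15.1 and 29.4 to 45.7 CPM. Camp, a granule peptide, was at 0.162 to 0.561 and 1.68 to 3.29 CPM, while Mpo was at 0.681 to 2.32 CPM and Retnlg at 0 to 0.220 CPM over the 10 libraries, with overlapping sets. The sets also overlapped for Mmp8, at 200 and 188 CPM in untreated WT and 179 and 185 in untreated KO libraries. Mmp8 stood at 176 and 186 CPM in WT control, 130 and 119 in KO control, and 157 and 144 in KO Poly(I:C) libraries. It was lower in KO cells after Poly(I:C) than untreated (−0.27, limma adjusted p = 0.0080). Of 7 mast cell and basophil markers 2 passed, and their sum was at most 0.616 CPM in untreated and KO control libraries and 31.3 to 55.5 CPM in the other 4, nearly all of it Hdc, the enzyme that makes histamine. Kit, the other marker that passed, was at 0 to 0.1985 CPM and 0.643 to 1.175 CPM in these sets. It passed the filter only through the higher set, so a test between the sets would rest on that selection and none is given. Cpa3, Fcer1a, Mcpt8 and Tpsb2 were at 0 throughout. The sum of 8 stromal and endothelial markers was 29.8 to 39.5 CPM and 54.6 to 78.0 CPM in the same sets. Of the 7 that passed the filter, 3 were higher, 0 lower and 4 not called in WT cells after control medium, where 65.8% of all genes were called. Pecam1, at 20.1 to 31.5 CPM over the 10 libraries, overlapped between the sets, while Kdr was at 1.11 to 1.85 and 18.98 to 37.3 CPM. The sum of 5 B cell markers, nearly all of it Cd79b, ran the other way, at 37.1 to 53.0 CPM in untreated and KO control libraries and 7.53 to 11.4 CPM in the others. Of the 10 macrophage markers, 5 were higher and 2 lower in WT cells after control medium, near the 65.8% of all genes called there. Several of these markers moved with or against Ctsc, Ctsz and Ctss, and the part of any marker in the differences was not tested.

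Protease inhibitors, not all of them inhibitors of cysteine cathepsins, were read in the same libraries, and 9 of 15 listed passed the filter. In WT cells after control medium 6 of the 9 were higher and 1 was lower (Serpinb1a, −0.53), with a median of 0.99 against −0.01 over all genes, of which 65.8% were called. In KO cells 4 were higher with a median of 0.26, where 20% of all genes were called, and KO control cells had 7 of 9 lower than WT control cells (median −0.53), where 61.1% were. Poly(I:C) gave 8 of 9 higher than control medium (median 0.96) and 9 of 9 higher than untreated KO cells (median 1.32), where 69.4% and 72.1% of all genes were called. These counts alone do not set the inhibitors apart. They also include Stfa3, at 0.0649 to 0.345 CPM in untreated and KO control libraries and 1.71 to 2.18 CPM in the others. Stfa3 met the filter only with the libraries where it was high, so its part in the counts and medians rests on that selection.

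Cst7, or cystatin F, which inhibits Ctsc, was read at 0.658 and 0.926 CPM in untreated WT, 0.556 and 0.519 in untreated KO, 14.6 and 24.1 in WT control, 0.231 and 0.389 in KO control, and 27.9 and 28.9 in KO Poly(I:C) libraries. It was lower in KO than in WT control cells by −5.55 (SE 0.27, limma adjusted p = 9.61e-08). Serpina3g, a serpin that inhibits cathepsins in the cytosol, went from 1.60 and 2.38 CPM in untreated WT to 83.8 and 135 in WT control (5.70 log2, limma adjusted p = 3.00e-08). In KO cells it stood at 1.31 and 1.75 untreated, 3.14 and 2.82 after control medium, and 325 and 364 after Poly(I:C). Serpina3f, its close relative, reached 53.2 and 58.0 CPM after Poly(I:C), and reads of these related serpins may be shared between them. The abundant inhibitors changed less: Cstb, or stefin B, was 0.62 higher in WT cells after control medium (limma adjusted p = 5.75e-05).

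**Figure D4:**
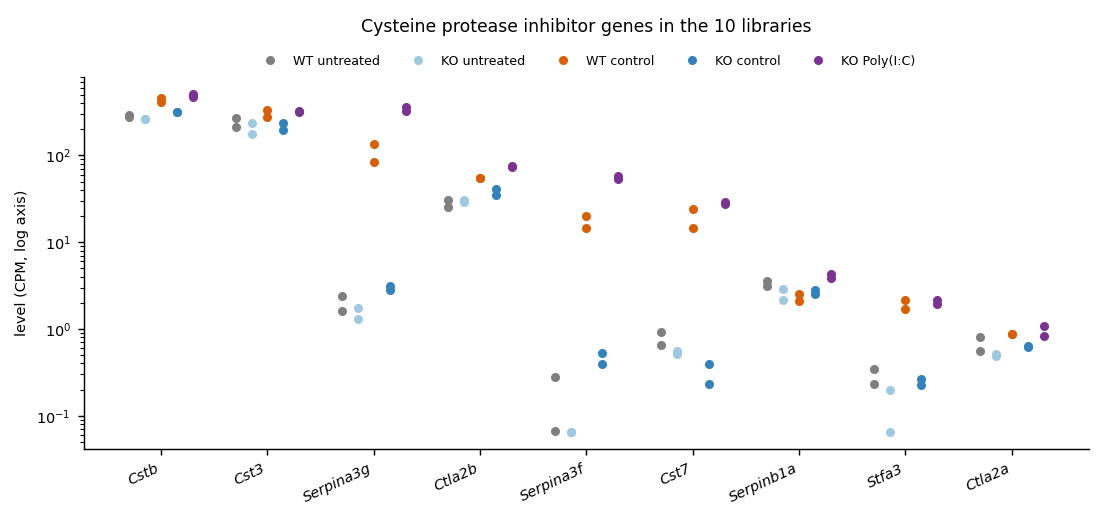
Level (CPM, log axis) of the 9 inhibitor genes that passed the filter, in each of the 10 libraries, colored by group. Serpina3g, Serpina3f, Cst7 and Stfa3 are highest in WT control and the KO Poly(I:C) libraries, and Cstb and Cst3 differ little between groups on this scale.

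Of 13 genes that sort or process cathepsins, 4 were higher and 3 lower in WT cells after control medium, where 65.8% of all genes were called in either direction, so the count does not set them apart. M6pr, the cation-dependent mannose 6-phosphate receptor, was read at 381 and 361 CPM in untreated WT and 926 and 952 in WT control libraries (1.34 log2, limma adjusted p = 9.10e-08). Sort1, the alternative receptor sortilin, went the other way, from 135 and 142 to 42.2 and 41.0 CPM (−1.73, limma adjusted p = 4.28e-08), and was also lower in KO cells after control medium (−0.91). Igf2r, the other mannose 6-phosphate receptor, was read at 169 and 137 CPM in untreated WT and 126 and 105 in WT control libraries. It stood at 164 and 171 CPM in KO control and 94.7 and 103 in KO Poly(I:C) libraries. Lgmn, the asparagine endopeptidase that processes several cathepsins, was read at 1203 to 1645 CPM over the 10 libraries and was called in 0 comparisons.

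Among 36 other lysosomal genes, 7 were higher and 16 lower in WT cells after control medium (median −0.20), and 13 were higher and 11 lower in KO cells after Poly(I:C) than after control medium (median 0.02). The shares called over all genes, 65.8% and 69.4%, were close to these. Npc2, a cholesterol carrier of the lysosome, was higher by 1.36 after Poly(I:C) (limma adjusted p = 5.90e-07), and Manba, the lysosomal mannosidase, was lower by −1.33 (limma adjusted p = 5.85e-07). Of 17 genes of the proton pump that acidifies the lysosome, 8 were higher and 2 lower in WT cells after control medium and 11 higher and 3 lower in KO cells after Poly(I:C) against control medium, beside the same 65.8% and 69.4% of all genes. Tcirg1, a subunit of that pump, was higher by 1.08 and 1.61 in these comparisons.

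Some factors that act at the motifs shown above were measured in the same libraries. Irf1, which binds interferon-stimulated response elements, was read at 45.8 and 53.6 CPM in untreated WT, 175 and 237 in WT control, 42.6 and 48.3 in KO control, and 439 and 445 in KO Poly(I:C) libraries. Tfeb, the main activator of lysosomal genes through the E-box form, was lower in WT cells after control medium (−1.06, limma adjusted p = 0.00220) and in KO cells after Poly(I:C) against control medium (−1.61, limma adjusted p = 1.23e-04). Its relatives Tfe3, Mitf and Tfec, which bind the same motif, went the other way: they were higher by 1.07, 1.16 and 0.38 in WT cells after control medium (limma adjusted p = 2.43e-07, 5.50e-06 and 0.0224) and by 0.59, 1.07 and 0.58 after Poly(I:C) against control medium (limma adjusted p = 1.45e-05, 8.45e-06 and 0.00208). Tfe3 was read at 110 and 114.5 CPM in untreated WT and 233 and 239 in WT control libraries, and Mitf at 35.9 and 43.8 and at 86.6 and 91.2. RNA levels of a factor do not measure its activity, and a link to the cathepsins was not tested.

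Partners of the cathepsins in antigen and nucleic acid sensing were also read. Cd74, the invariant chain cut by Ctss, was at 6.11 and 8.17 CPM in untreated WT, 29.97 and 46.5 in WT control, 11.5 and 10.6 in KO control, and 36.7 and 37.6 in KO Poly(I:C) libraries. It was lower in KO than in WT control cells by −1.75 (SE 0.19, limma adjusted p = 3.12e-05). Of 10 class II pathway genes, 5 were higher and 4 lower in WT cells after control medium, where 65.8% of all genes were called, and 5 lower and 0 higher in KO cells, where 20% were. Tlr3, an endosomal receptor that cathepsins cleave, stood at 11.4 and 11.3 CPM in untreated WT, 88.8 and 106 in WT control, 10.5 and 11.03 in KO control, and 166 and 195 in KO Poly(I:C) libraries. In the list of 6 endosomal receptor genes that holds Tlr3, 4 were higher and 1 lower (Tlr13, −0.35) in WT cells after control medium. There too 65.8% of all genes were called.

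Over the 10 libraries, log2 levels of Ctsc, Ctsz and Ctss ran together, with Pearson r of 0.94 for Ctsc and Ctsz, 0.93 for Ctsc and Ctss and 0.96 for Ctsz and Ctss. Ctsd ran with Ctsa (0.88) and against Ctsc (−0.70). For Ctsc, Ctsz and Ctss, these values describe groups that fall into a high and a low set. Any gene that follows that split scores high. Differences between the 2 libraries of a group also enter every r. Ctsa, Ctsb and Ctsd were higher in the library numbered 2 in 5 of 5 groups, and the part of this in their r values was not tested. The protein-coding genes most like Ctsc among 12027 were Aida, Acsl1 and Rcn1 (r of 0.999, 0.999 and 0.998 over 10 libraries). Those most like Ctss were Psme4, Fth1 and Rnf214 (0.994, 0.994 and 0.992), and those most like Ctsz were Mgrn1, Litaf and Pim1 (0.998, 0.996 and 0.995). For Ctsb they were Smpdl3a, Lamp1 and Pla2g7 (0.979, 0.963 and 0.960), of which Lamp1 encodes a main membrane protein of the lysosome.

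The spread between the 2 libraries of a group was not the same for all 9 genes. Ctsb, Ctsd, Ctsa, Ctsh and Ctss were higher in the library numbered 2 in 5 of 5 groups, by 0.14 to 0.21 log2 for Ctsb and 0.17 to 0.27 for Ctsd. Ctsc was higher there in 2 of 5 groups, between −0.17 and 0.07. The summed level of the 9 genes was also higher in library 2 of every group. The labels do not say what the numbers share, and whether they mark a batch was not tested.

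**Figure D5:**
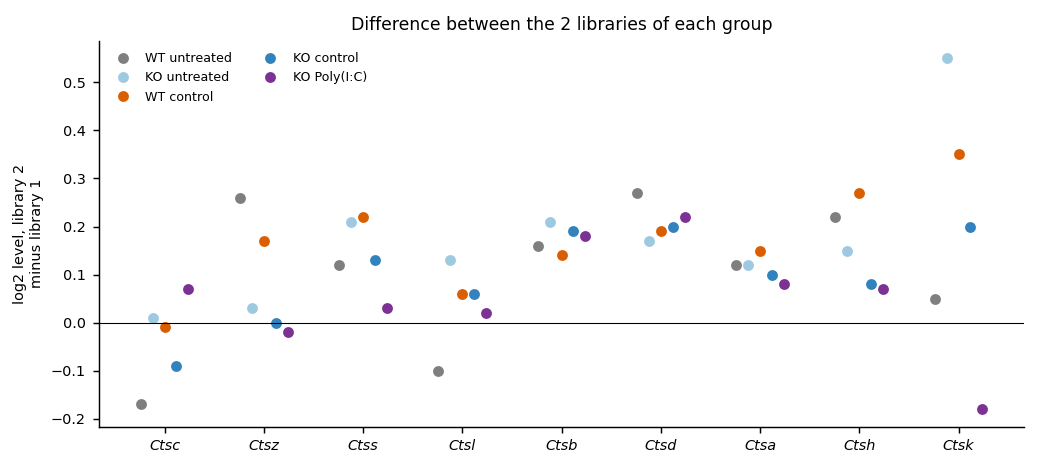
Log2 level in library 2 minus library 1 of each group, for the 9 cathepsin genes. All 5 points lie above 0 for Ctss, Ctsb, Ctsd, Ctsa and Ctsh, and on both sides of 0 for Ctsc, Ctsz, Ctsl and Ctsk.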

How the data were processed

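RNA was sequenced with a stranded mRNA kit (TruSeq), per the labels' protocols. Per the submitters' processing notes, the tools were DESeq2 (no version), RSEM 1.2.12, STAR 2.4.0d and Trim Galore 0.2.8. Roles, settings and genome build are not stated there. The authors deposited a table of whole numbers. Their low values lie on a grid, as reads multiplied by 1 factor per library and rounded would, so the deposited values were treated as a signal, scaled and rounded by the authors, and no count model was run. The authors also deposited regularised log2 (rlog) values, which served as an alternative. The factors were inferred from the spacing of low values (0.687 to 1.9025). Where the factor lay below 1, in 4 libraries, no whole number is skipped, so the factor and the reads inferred there are less certain.

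Each signal value was divided by the library total times a trimmed-mean (TMM) factor (30% of M and 5% of A values trimmed) to give CPM. The filter required 10 or more in 2 or more libraries (13171 of 20687 above 0). limma 3.58.1 in R 4.3.3, with a trend, was fitted to log2(CPM + 0.1) with 1 coefficient per group over all 10 libraries (5 residual and 4.83 prior degrees of freedom), with Benjamini-Hochberg adjustment over all genes. Fold changes on that scale are too small for genes of low level. The fit was tested on simulated data. Symbols and coordinates are those of GENCODE M21 (GRCm38), which matched 44671 of 45318 identifiers and may not be the authors' build. Overlap of promoter windows with exons was read from the same annotation.

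The members and lists were chosen with earlier results of these data known, and so were the motifs. Named genes are the 9 members, other cathepsins passing the filter, Tlr4, in each list and comparison at most the 2 called genes with the largest difference each way, and the 3 genes most like a member. Genes named outside this rule (Cstb, Lgmn, Mpo, Retnlg, Stfa3, Cst3, Csf3r, Cxcr2, S100a9, Lyz2, Tfe3, Mitf, Pecam1 and Igf2r) were chosen after their values were seen. Cpa3, Fcer1a, Mcpt8 and Tpsb2, which failed the filter, and the genes that overlap a member were also named outside it. Alternatives were other scalings, filters, a pseudocount of 1, no trend, the rlog table, only the compared groups, the replicate block, and each library left out.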

Additional observations from a re-analysis of the deposited data

Results flagged for a closer look

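For 4 of the 9 cathepsins the response to control medium differed between the genotypes by the interaction term of limma on log2(CPM + 0.1). The difference (KO response minus WT response) was −1.90 for Ctsc (adjusted p = 1.06e-06), −0.97 for Ctsz (adjusted p = 2.65e-04), −0.57 for Ctss (adjusted p = 0.00977) and −0.41 for Ctsl (adjusted p = 0.0133). Over all genes tested, 45.7% had a called interaction. For Ctsc, Ctsz and Ctss it came with a higher level in WT cells after control medium, and for Ctsl with a lower level in KO cells.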

How the results depend on the processing

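Of the 63 differences of the 9 genes, 22 were called, and 9 of these kept direction and call in all 20 alternatives. Some directions depend on scaling. With library totals alone, the median of all genes stood at 0.50 (KO against WT, control medium), −0.52 (control medium, WT), −0.03 (control medium, KO), −0.76 (Poly(I:C) against control medium), −0.77 (Poly(I:C) against untreated) and 0.52 (interaction). Under it the signs turned to 0.26 for Ctsb, 0.12 for Ctsk and 0.03 for Ctsl in KO against WT control medium, to −0.47 for Ctsb, −0.49 for Ctsl and −0.08 for Ctss in WT cells after control medium, to −0.28 for Ctsb, −0.50 for Ctsh, −0.59 for Ctsk and −0.23 for Ctsl after Poly(I:C) against control medium, to −0.55, −0.59, −0.40 and −0.64 for the same 4 genes against untreated cells, and to 0.21 for Ctsb and 0.09 for Ctsl in the interaction. With the deposited scaling, signs turned for Ctsa (−0.04) and Ctsd (−0.11) in KO against WT control medium, for Ctsa (0.03), Ctsh (0.02) and Ctsk (0.03) in WT cells after control medium, for Ctsa (0.12) and Ctsd (0.07) in Poly(I:C) against control medium, for Ctsa (0.04) in Poly(I:C) against untreated cells, and for Ctsa (−0.10), Ctsd (−0.15) and Ctsh (−0.08) in the interaction. The Ctsd interaction was −0.03 with median-of-ratios scaling and −0.03 with the rlog table.

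The number of cathepsins called in WT cells after control medium was 8 with totals alone against 3. In KO cells it was 1 against 2 with totals alone, the deposited scaling, no filter, no trend or the rlog table, and 0 to 3 with 1 library left out. For Poly(I:C) against control medium it was 8 with totals alone against 5, and for Poly(I:C) against untreated cells 7 with the deposited scaling against 4. The cause was not tested.

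With 1 library left out, uncalled differences changed sign in these ranges: between untreated KO and WT cells, Ctsb −0.04 to 0.17, Ctsc −0.01 to 0.15, Ctsd −0.08 to 0.19, Ctsl −0.12 to 0.01, Ctss −0.15 to 0.06 and Ctsz −0.21 to 0.06. In WT cells after control medium they were Ctsb −0.05 to 0.14, Ctsk −0.29 to 0.06 and Ctsl −0.01 to 0.07, and in KO cells Ctsh −0.14 to 0.02 and Ctsk −0.07 to 0.51. Ctsd in control medium was −0.03 to 0.17 (KO against WT) and Ctsk −0.01 to 0.19 (Poly(I:C) against control medium). The interaction was −0.02 to 0.13 for Ctsa, −0.13 to 0.15 for Ctsd and −0.05 to 0.22 for Ctsh.

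With the replicate block, 7 cathepsins were called for Poly(I:C) against untreated KO cells, against 4 without it, adding Ctsa (adjusted p = 0.0323), Ctsb (0.0304) and Ctsh (0.0404). The block also gave 6 against 4 for KO against WT in control medium (adding Ctsb, 0.0233, and Ctsh, 0.0257), 4 against 3 for control medium in WT cells (Ctsd, 0.0184), 6 against 5 for Poly(I:C) against control medium (Ctsh, 0.0133) and 5 against 4 for the interaction (Ctsb, 0.0458). The libraries share only a number in the labels, and the deviations of same-numbered libraries correlated at 0.01 to 0.32 over the 10 pairs of groups. Pairs of groups of the same genotype stood at 0.17 to 0.32 and pairs of different genotype at 0.01 to 0.11. What the numbers mark was not tested. Over all genes, the 22 called between untreated genotypes became 2 with only these groups fitted, 11 with the rlog table, 14 with no filter, 99 with the replicate block, and 12, 69 and 14 without WT untreated 1, WT untreated 2 and KO untreated 2. The 2632 called in KO cells after control medium became 1073 to 1579 without 1 of the 4 KO libraries compared. Each group has 2 libraries, which limits the precision, and a lone library is assumed to vary like the other groups.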
